A study of Mus musculus with 16 samples.

Results

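Accessible chromatin was described at 5 genes of 3 paternally methylated imprinted loci, H19, Igf2, Dlk1, Meg3 and Rasgrf1, out of the 49939 genes that RefSeq places on the chromosomes of GRCm38. They were chosen by name, and every peak overlapping a gene's bounds plus 40 kb on each side was taken as belonging to it. The peaks come from ATAC-seq, which cuts and tags open DNA with a transposase, on germ cells isolated from testes of male mice that carry the Mvh-Venus germ-cell reporter transgene. Per the labels, 16 samples form 8 groups of 2: Morc1 (+/-) (heterozygous) and Morc1 (-/-) (knockout) germ cells, each at 2 embryonic stages (E13.5 and E16.5, named by the embryonic day) and on postnatal days 0 (P0) and 3 (P3). Morc1 encodes an ATPase needed to silence transposons in the male germ line. The authors deposited 1 peak list per group. The P0 lists of both genotypes are identical, as are the P3 lists, so 6 distinct lists were used, and no genotype is attached to P0 or P3.

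Imprinted genes are read mainly from the copy inherited from 1 parent, and the choice rests on DNA methylation laid down in the germ line. Most such methylation marks are placed in oocytes, whereas those of the H19-Igf2, Dlk1-Meg3 and Rasgrf1 loci are placed on the paternal copy, in fetal male germ cells that have stopped dividing. The marks lie in control regions upstream of the long noncoding RNA genes H19 and Meg3 and upstream of Rasgrf1. Their placement depends on DNMT3A and DNMT3L, and at Rasgrf1 also on the piRNA pathway.

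A list gives only the position of each peak, nearly always as an interval of 501 bp, with no height and no replicate. Presence or absence in 1 list is therefore the whole measurement, its spread between samples is unknown, and no test between conditions was possible. The 6 lists held 39559 to 67258 peaks, the longest being P0, and the read depth behind them is unknown. A peak missing from a list was not called there, which is not the same as closed chromatin. The label of these loci refers to methylation, which the files do not hold, so it could not be checked in these cells. Of 9 germ-cell genes checked, Ddx4, Dazl, Sycp3, Mael and Tex101 had a peak within 1000 bp of a start in all 6 lists. Pou5f1 had one in 3 lists, Nanos3 in 1 and Nanos2 in 0, and Dppa3, with no start in the table, had one at an outer end in 2. By list, from 5 (P3) to 7 (P0) of the 9 had such a peak, against 47.6% to 51.8% of all genes with an annotated start. Some somatic marker genes, given below, also had a start peak in all 6 lists.

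Peaks of the 6 lists that shared at least 1 bp were joined into sites. The H19-Igf2 window (chr7:142535530-142706816) held 7 sites, the Dlk1-Meg3 window (chr12:109412485-109611729) held 10, and the Rasgrf1 window (chr9:89869508-90066979) held 8. All positions are GRCm38, 1-based. Of the 25 sites, 11 lay within the bounds of 1 of the 5 genes and 7 lay outside every annotated gene. The gene table gives outer bounds only, so exons and introns were not told apart.

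Sequences upstream of the starts are shown first, because the members differed in how often a peak lay at them. RefSeq (GRCm38.p6) start sequences were matched for 4 of the 5 members. Each line gives the 250 bases before a start, 5′ to 3′ in the direction of the gene, with every CG, the dinucleotide that carries mammalian DNA methylation, in capitals. The Rasgrf1 sequence is the plus strand of chr9:89909525-89909774, Dlk1 that of chr12:109452573-109452822 and Meg3 that of chr12:109540746-109540995. For Igf2, which has 4 annotated starts, the sequence before the start at position 142658804 is shown, the minus strand of chr7:142658805-142659054, as no other Igf2 start had a peak within 1000 bp.
Rasgrf1: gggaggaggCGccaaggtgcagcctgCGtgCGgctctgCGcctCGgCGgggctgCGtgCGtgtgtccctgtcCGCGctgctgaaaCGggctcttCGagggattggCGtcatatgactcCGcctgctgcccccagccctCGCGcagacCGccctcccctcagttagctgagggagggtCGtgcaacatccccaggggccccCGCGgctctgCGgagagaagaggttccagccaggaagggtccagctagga
Igf2: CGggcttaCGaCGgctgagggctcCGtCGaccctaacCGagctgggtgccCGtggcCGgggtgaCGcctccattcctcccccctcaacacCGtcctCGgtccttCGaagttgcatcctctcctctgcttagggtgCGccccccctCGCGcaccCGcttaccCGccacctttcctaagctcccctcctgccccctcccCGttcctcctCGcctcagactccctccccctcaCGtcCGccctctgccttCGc
Dlk1: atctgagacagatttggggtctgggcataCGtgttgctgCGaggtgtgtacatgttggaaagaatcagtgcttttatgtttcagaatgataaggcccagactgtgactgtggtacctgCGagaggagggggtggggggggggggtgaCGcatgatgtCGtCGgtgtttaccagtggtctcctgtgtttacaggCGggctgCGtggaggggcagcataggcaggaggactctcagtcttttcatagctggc
Meg3: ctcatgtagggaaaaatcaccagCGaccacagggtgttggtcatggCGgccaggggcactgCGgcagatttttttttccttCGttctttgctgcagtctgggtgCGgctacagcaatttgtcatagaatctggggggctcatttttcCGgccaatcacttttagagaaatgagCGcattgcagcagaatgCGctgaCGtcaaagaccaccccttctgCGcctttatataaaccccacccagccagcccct

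Among these, Igf2 held 22 CG and Rasgrf1 21, while Meg3 held 10 and Dlk1 8. Over all 32851 start sequences of the same length the median was 6 CG, with quartiles of 2 and 16. Igf2 and Rasgrf1 thus stood in the CG-rich class, above the upper quartile, and Dlk1 and Meg3 in the middle class, between the quartiles. The GC content was 69.2% for Rasgrf1, 68.8% for Igf2, 54.8% for Dlk1 and 52.4% for Meg3. The other 3 Igf2 starts held 1, 6 and 10 CG.

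A set of 4 short motifs was searched on both strands of these sequences. The hexamer TGCCGC, which the imprint-protecting zinc finger protein ZFP57 binds when methylated, had 1 match before the Meg3 start and none before Rasgrf1, Dlk1 or any Igf2 start. It occurs in 8.68% of all start sequences. Meg3 also held 1 match of the cyclic AMP response element TGACGTCA, which 1.55% of all start sequences hold. The TATA-like string TATATAA matched the Meg3 sequence on each strand, as overlapping matches in 1 stretch, and 3.04% of start sequences hold it. The GC box GGGCGG, found in 32.7% of start sequences, had 1 match before Rasgrf1 and 1 before the Igf2 start shown, and none before Dlk1 or Meg3. A match describes letters only.

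**Figure D1:**
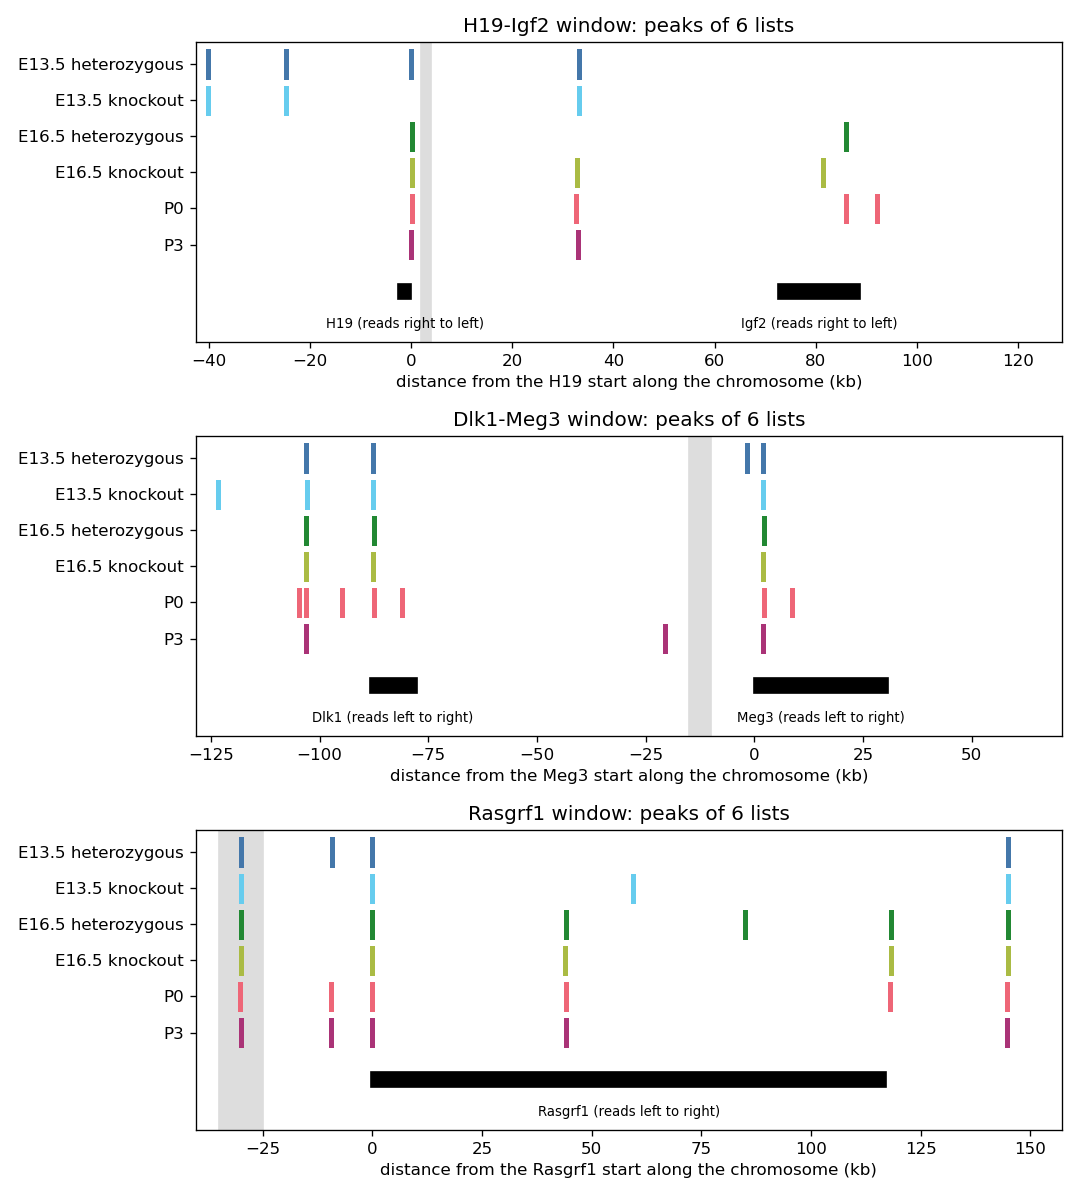
Peaks of the 6 lists (rows) in the windows of the 3 loci, as vertical bars at the peak centres; the horizontal axes give the distance in kb from the start of H19, Meg3 or Rasgrf1 along the chromosome, black boxes are the 5 genes, and grey bands are the intervals taken for the germline methylated control regions. The Rasgrf1 band holds a peak in all 6 lists, and the H19 and Meg3 bands hold none.

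The control regions were examined as intervals at the distances usually given for them, since the files carry no such annotation. They differed between the loci. The interval 25 to 35 kb upstream of Rasgrf1 held 1 peak in each of the 6 lists. The interval 2 to 4 kb upstream of H19 (chr7:142580146-142582146) and the interval 10 to 15 kb upstream of Meg3 (chr12:109525996-109530996) held 0 peaks in every list.

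At Rasgrf1, whose product is a guanine nucleotide exchange factor that activates Ras, the upstream peak lay at nearly the same place in every list. Its span was 89879573 to 89880073 in heterozygous and 89879549 to 89880049 in knockout cells at E13.5. The E16.5 span was 89879584 to 89880084 in heterozygous and 89879572 to 89880072 in knockout cells. The P0 peak spanned 89879470 to 89879970 and the P3 peak 89879589 to 89880089. The 6 centres lay within 119 bp of each other, about 30 kb before the start. Over all 27024 genes with an annotated start, a peak lay 25 to 35 kb upstream in 24.8% (E13.5 heterozygous), 24.5% (E13.5 knockout), 25.6% (E16.5 heterozygous), 27.4% (E16.5 knockout), 30% (P0) and 23.8% (P3), and in all 6 lists for 13.9%. Many other genes thus had a peak at that distance, and its presence at Rasgrf1 is given as a description.

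The absence of peaks from the other intervals is likewise the usual state of genes. A peak lay 2 to 4 kb upstream of a start in 3.78%, 3.92%, 4.5%, 4.63%, 5.25% and 3.68% of genes, in the order of lists above. For 10 to 15 kb upstream the shares were 13.8%, 13.7%, 14.2%, 15.2%, 17.5% and 13.2%. All 6 lists had such a peak for 1.79% of genes at the first distance and for 6.9% at the other. The peak nearest to the H19 interval was the one at the H19 start, 1.57 to 1.78 kb away, in 5 lists. In the E13.5 knockout list, which has no peak at the H19 start, the nearest lay 26.5 kb away. The Meg3 interval was 5.33 kb from the nearest peak at P3, 8.01 kb in E13.5 heterozygous cells and 11.8 to 11.9 kb in the other 4 lists.

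Peaks at gene starts were taken within 1000 bp. Rasgrf1 had a start peak in 6 of 6 lists, H19 and Dlk1 in 5 each, Igf2 in 1 and Meg3 in 0. By list, 3 of the 5 members had one in E13.5 heterozygous cells, against 47.6% of all genes, and 2 in E13.5 knockout cells, against 47.9%. At E16.5 the counts were 3 in heterozygous cells (all genes 48.6%) and 4 in knockout cells (all genes 49.7%). At P0 there were 3 (all genes 51.8%) and at P3 2 (all genes 47.7%). With so few members, counts of 2 to 4 do not set them apart from all genes. H19 is in the gene table without a separate start, so its upper outer end was used, H19 being read on the minus strand like the microRNA gene Mir675 within it.

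The Rasgrf1 start peak was the most fixed in position of all sites found in 5 or 6 lists. It began at 89909502 in E13.5 heterozygous, 89909488 in E13.5 knockout, 89909505 in E16.5 heterozygous, 89909501 in E16.5 knockout, 89909479 in P0 and 89909501 in P3 cells. The centres spanned 26 bp. Across the 17464 sites of the genome with 1 peak in each of the 6 lists, the median span was 99 bp, with quartiles of 58 and 166 bp. The Rasgrf1 start peaks overlapped the sequence printed above in all 6 lists.

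At the start of H19, the maternally expressed long noncoding RNA that hosts Mir675, a peak was listed in E13.5 heterozygous cells at 142577927 to 142578427. The E13.5 knockout list has no peak there. The E16.5 peak spanned 142578000 to 142578500 in heterozygous and 142578020 to 142578520 in knockout cells. It spanned 142578073 to 142578573 at P0 and 142577866 to 142578366 at P3. The centres lay from 177 bp upstream of the start at P0 to 30 bp inside the gene at P3, a span of 207 bp. The E13.5 knockout list was thus the exception, and at E16.5 the genotypes did not differ in presence.

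At Dlk1, which encodes a Delta-like transmembrane protein made from the paternal copy, the peak lay just inside the gene. Its centre was 478 bp after the start in E13.5 heterozygous and 471 bp in E13.5 knockout cells. The E16.5 distance was 584 bp after the start in heterozygous and 539 bp in knockout cells, and at P0 it was 615 bp. P3 was the only list without it. The peaks did not reach the 250 bases printed above. The middle class of start sequences by CG number, to which Dlk1 and Meg3 belong, had a peak within 1000 bp of the start in 44.9% (E13.5 heterozygous), 45.1% (E13.5 knockout), 46.3% (E16.5 heterozygous), 47.8% (E16.5 knockout), 51.5% (P0) and 45.7% (P3).

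Meg3, the maternally expressed long noncoding RNA of that domain, had no peak within 1000 bp of either annotated start. A site inside the gene was present in all 6 lists instead, centred 2.04 kb after the upstream start. The centres were 1995 bp after that start in E13.5 heterozygous, 2000 bp in E13.5 knockout, 2131 bp in E16.5 heterozygous, 2037 bp in E16.5 knockout, 2175 bp in P0 and 2040 bp in P3 cells. Within 2000 bp of a start, Meg3 would count as having a start peak in 6 of 6 lists.

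Igf2, the fetal growth factor expressed from the paternal copy, had a peak at its CG-rich start in 1 of 6 lists. Start sequences of the CG-rich class, to which the printed Igf2 sequence belongs, had a peak within 1000 bp in 92.7% and 93.1% of cases in the E13.5 lists (heterozygous, then knockout). The shares were 92.3% and 93% in the E16.5 lists, 92.8% at P0 and 90% at P3. At this Igf2 start a peak was listed in E16.5 knockout cells only. It spanned chr7:142659258-142659758, centred 704 bp upstream, and did not overlap the printed bases. It did overlap Igf2os, an antisense noncoding RNA gene that runs through the upstream part of Igf2. Rasgrf1, in the same CG class, had its start peak in every list.

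A pair of further sites lay at Igf2. The first, at 142663886 to 142664386 in E16.5 heterozygous cells and 142663813 to 142664313 at P0, lay inside the gene and was absent from the other 4 lists. The other lay at 142669927 to 142670427 at P0 only, 3.36 kb upstream of the outermost start and at the upper end of Igf2os. No E13.5 list and not the P3 list had a peak within the Igf2 bounds. The nearby pancreatic hormone gene Ins2, which has no start in the table, had no peak within 1000 bp of an outer end in any list.

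Between H19 and Igf2, 32.9 kb upstream of H19, a site at annotated inner starts of the noncoding RNA gene Gm33148 was present in 5 lists. It was listed in both genotypes at E13.5, at 142610995 to 142611495 (heterozygous) and 142610996 to 142611496 (knockout). At E16.5 it was listed in knockout cells only, at 142610782 to 142611282. It lay at 142610796 to 142611296 at P3. The P0 peak, at 142610406 to 142610906, shared bases with the E16.5 knockout and P3 peaks and none with the E13.5 peaks, so the site is a chain of positions spanning 590 bp. On the other side of H19, sites within Nctc1 (24.8 kb) and Mrpl23 (40.1 kb), a noncoding RNA gene and a mitochondrial ribosomal protein gene, were listed in both E13.5 lists and in no later list.

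**Figure D2:**
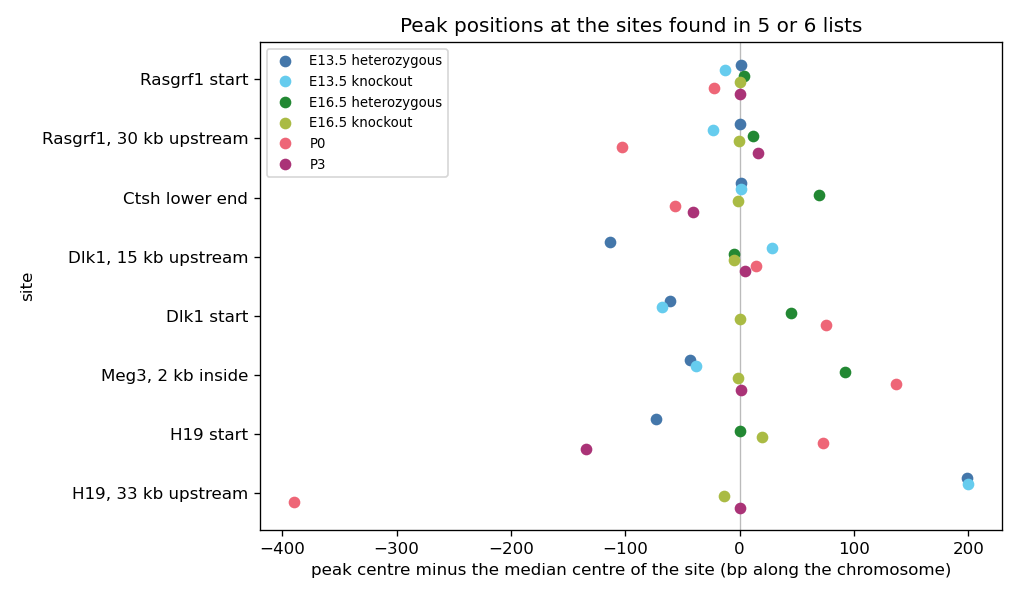
Centre of each peak relative to the median centre of its site, in bp along the chromosome, for the 8 sites found in 5 or 6 lists; each point is 1 list. The Rasgrf1 start peaks span 26 bp, and the site upstream of H19 spans 590 bp with the P0 peak apart from the others.

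Around Dlk1, a site 14.9 kb upstream, outside any annotated gene, was present in all 6 lists with centres within 142 bp. It spanned the same bases, 109437717 to 109438217, in both genotypes at E16.5. The P0 list added 4 sites found in no other list: 16.4 and 6.77 kb upstream of Dlk1, 7.1 kb inside Dlk1 and 4.17 kb after the downstream start of Meg3. A site 35.1 kb upstream of Dlk1 was in the E13.5 knockout list only, and a site 20.6 kb upstream of Meg3 was in the P3 list only. A site 1.74 kb upstream of Meg3, within 1000 bp of a start of the divergent noncoding RNA gene Gm34081, was in the E13.5 heterozygous list only.

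Most of the microRNA genes in the Dlk1-Meg3 window lay in a stretch without peaks. From position 109549816 to 109611728, 61.9 kb ending just inside the window's upper bound at 109611729, no list had a peak. The stretch ends where the window does, and both E13.5 lists had a peak in Rian 1020 bp beyond that bound. It contains 17 of the 18 annotated microRNA genes of the window, among them Mir770, Mir127 and Mir136, and all of Rtl1, a gene of retrotransposon origin. The stretch was picked as the longest without peaks in the window. Many of these microRNA genes lie close together, so they are not separate observations. The share of microRNA genes without a nearby peak over the genome was not counted. The peak nearest to Mir770 lay 13.9 kb away. Mir1906-1 lies outside the stretch, within Meg3, and had no peak within 1000 bp. In the H19-Igf2 window the longest empty stretch was 47.8 kb, from the site in Gm33148 into Igf2, where it covers the Igf2 starts at 142657496 and 142658804 and the microRNA gene Mir483. In the Rasgrf1 window it was 43.5 kb within Rasgrf1. Mir675 was the only microRNA gene of the windows with a peak within 1000 bp of it in any list, in the 5 lists with the H19 start peak.

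Inside and beyond Rasgrf1 lay the 2 of the 25 sites that were in both E16.5 lists and in no E13.5 list. The E16.5 lists were also the longer ones, with 53687 (heterozygous) and 57117 (knockout) peaks against 40448 and 39559 at E13.5. The share of sites with this pattern over the genome was not counted. A site 44.1 kb after the start was absent from both E13.5 lists and present in both E16.5 lists, at P0 and at P3. It spanned 89953651 to 89954151 in heterozygous and 89953541 to 89954041 in knockout cells at E16.5. A site just beyond the end of the gene, at 90027728 to 90028228 in heterozygous and 90027718 to 90028218 in knockout cells at E16.5, was present again at P0 and in no E13.5 list or P3. Conversely, a site 9.29 kb upstream was in the E13.5 heterozygous list, P0 and P3, and in neither E16.5 list. Single-list sites lay 59.3 kb (E13.5 knockout) and 85.1 kb (E16.5 heterozygous) after the start. The last site, in all 6 lists, lay at the lower outer end of the neighbouring gene Ctsh, which encodes the lysosomal protease cathepsin H.

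Across the 3 loci, 12 peaks were listed in E13.5 heterozygous, 11 in E13.5 knockout, 11 in E16.5 heterozygous and 11 in E16.5 knockout cells, 17 at P0 and 10 at P3. Per 100 kb these are 2.11, 1.94, 1.94, 1.94, 2.99 and 1.76 peaks. The largest count was thus in the longest list, P0. The median over the windows of all genes, each taken singly and not joined, was 2.22, 2.15, 2.39, 2.47, 2.69 and 2.24 in the same order. Over protein-coding genes alone it was 2.63, 2.61, 2.7, 2.95, 3.28 and 2.43. The P0 value at the loci lay above the first median and below the second. All 5 members had 1 or more peaks in their window in all 6 lists. For Igf2 the only such peak in both E13.5 lists and at P3 was that in Gm33148. The share of all genes with 1 or more peaks, taken list by list, was 76.1% (E13.5 heterozygous), 74.8% (E13.5 knockout) and 81.7% (E16.5 heterozygous). It was 83.7% (E16.5 knockout), 86.6% (P0) and 81.7% (P3). The share of genes with a peak in all 6 lists at once was not counted.

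By gene, H19 had the highest density at E13.5, with 4.84 peaks per 100 kb in heterozygous and 3.63 in knockout cells, and 1.21 and 2.42 at E16.5. Dlk1 reached 5.5 at P0, above 82.7% of genes, and 1.1 at P3. Meg3 ranged from 0.903 to 1.81 and lay below the median of all genes in every list. Igf2 ranged from 1.04 to 3.12, and Rasgrf1, the longest of the members, from 2.03 to 3.04. The windows of H19 and Igf2 overlap, so the site in Gm33148 counts for both where it reaches the Igf2 window.

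**Figure D3:**
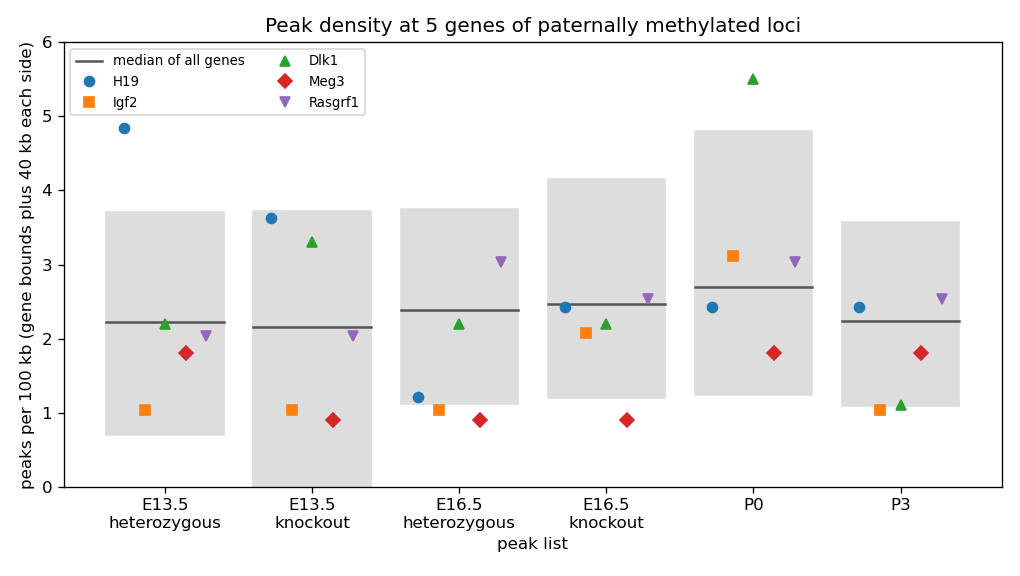
Peaks per 100 kb in the window of each member (gene bounds plus 40 kb on each side) in each list; grey boxes span the quartiles of all 49939 genes and the line is their median. H19 in E13.5 heterozygous cells (4.84) and Dlk1 at P0 (5.5) lie above the upper quartile, and Meg3 lies below the median in every list.

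Between genotypes, 9 peaks of each list were shared at E13.5. The heterozygous list had 3 of 12 peaks without a counterpart (25%, 95% Wilson interval 8.89 to 53.2), against 21.3% of all peaks of that list. These were the peaks at the H19 start, upstream of Meg3 and 9.29 kb upstream of Rasgrf1. The knockout list had 2 of 11 (18.2%, interval 5.14 to 47.7), against 19.6% of all its peaks: the peaks 35.1 kb upstream of Dlk1 and 59.3 kb inside Rasgrf1. The intervals cover counting error over peaks only.

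At E16.5, 9 peaks were again shared. The heterozygous list had 2 of 11 without a counterpart (18.2%, interval 5.14 to 47.7), against 18.6% of all its peaks: those inside Igf2 and 85.1 kb inside Rasgrf1. The knockout list had 2 of 11, against 23.5% of all its peaks: those in Gm33148 and at the Igf2 start. At both stages the share of unmatched peaks at these loci was near that of the whole list. None of the 3 sites absent from the E13.5 knockout list and present in the heterozygous list was also absent from the E16.5 knockout list and present in its heterozygous counterpart.

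Between stages, 7 of 12 E13.5 heterozygous peaks (all peaks 56.7%) and 7 of 11 E13.5 knockout peaks (all peaks 60.6%) were found at E16.5 in the same genotype. In the reverse direction, 7 of 11 E16.5 peaks were found at E13.5 in each genotype, against 42.7% (heterozygous) and 42% (knockout) of all peaks. The P0 list held 10 of 11 peaks of either E16.5 list, against 78% and 76.8%. Of the 17 P0 peaks, 10 were found in either E16.5 list (all peaks 62.3% in heterozygous and 65.2% in knockout cells), 9 were found at P3 (all peaks 55.7%), and 9 of the 10 P3 peaks were found at P0 (all peaks 83.6%).

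Of the 25 sites, 5 were in all 6 lists, against 16.3% of the 107032 sites of the genome, and 11 were in 1 list only, against 33.1%. The 5 included the Rasgrf1 start, its site 30 kb upstream and the site at the lower outer end of Ctsh. The others were the site in Meg3 and the site 14.9 kb upstream of Dlk1. No site of the H19-Igf2 window was in all 6. Of the 11 single-list sites, 5 came from P0, the longest list, which also supplied 39.1% of such sites in the genome. The Dlk1-Meg3 window held 7 of the 11.

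Other genes around the loci had been listed by name, 20 in all. For 6 of them (Ins2, Lsp1, Tnnt3, Wdr25, Rtl1 and Ctsh) the table gives no start, and a peak within 1000 bp of either outer end was counted as a start peak. By this count a start peak was present for 11 of them in E13.5 heterozygous, E13.5 knockout, E16.5 heterozygous and P0 cells. It was present for 12 in E16.5 knockout cells and for 10 at P3. Of all genes with an annotated start, 47.6% to 51.8% had a start peak over the lists, so these counts are near that share. The genes with a start peak in every list included Ascl2 and Mrpl23 beside H19-Igf2, Begain and Yy1 beside Dlk1-Meg3, and Tmed3, Ankrd34c and Morf4l1 beside Rasgrf1. Dio3, which encodes the thyroid hormone-inactivating deiodinase at the far end of the Dlk1-Meg3 domain, had one in all 4 E13.5 and E16.5 lists and in neither P0 nor P3. Syt8, a synaptotagmin gene, had one in E16.5 knockout cells and at P0. The maternally expressed noncoding RNA genes Rian and Mirg, downstream of Meg3, had none in any list, like Nctc1 and Th.

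Genes of other germline imprinted loci were set beside these. Zdbf2, at a further paternally methylated locus, had a start peak in all 6 lists and 5 to 10 peaks in its window. Its density, 2.57 to 5.15 peaks per 100 kb, lay above the median of all genes (2.15 to 2.69) in every list. A further 17 genes at maternally methylated loci were counted in the same way, with outer ends for Peg10 and Peg13. Of these, 14 had a start peak in each E13.5 list, 16 and 15 in the E16.5 heterozygous and knockout lists, and 15 at P0 and at P3. The share was 47.6% to 51.8% over the lists among all genes with a start, and 90% to 93.1% among CG-rich start sequences. The CG class of the 17 was not examined. The genes with a start peak in every list included Snrpn, Mest, Plagl1 and Kcnq1ot1. Peg3 had one in E16.5 heterozygous cells only, Peg10 in both E16.5 lists and P0, and Nnat at P3 only. The median density of the 17 was 2.37 to 3.31 peaks per 100 kb over the lists, and that of the 5 members 1.21 to 3.04. The difference between these sets was not tested.

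Somatic cells of the fetal testis also express H19, Igf2 and Dlk1. Start peaks were counted for 22 marker genes of Sertoli, Leydig, peritubular and endothelial cells and macrophages. They numbered 6 and 7 in the E13.5 heterozygous and knockout lists, 8 in each E16.5 list, 9 at P0 and 8 at P3. Of all genes with an annotated start, 47.6% to 51.8% had a start peak over the lists. The largest count was in the longest list, P0. For 11 of the 22, among them Sox9, Amh, Wt1, Star and Myh11, the table gives no start and the outer ends were used. Those present in all 6 lists were Cldn11, Cyp11a1, Lhcgr, Myh11 and Tek. Of the 22, 13 had no start peak in any list: Sox9, Amh, Dhh, Gata4, Insl3, Cyp17a1, Star, Hsd3b1, Pecam1, Cdh5, Csf1r, Adgre1 and Ptprc. The others were in some lists only. An outer-end peak of Wt1 was listed everywhere but at P3, and a start peak of Des everywhere but in E13.5 heterozygous cells. Fshr had one in both E16.5 lists, at P0 and at P3, and Acta2 at P0 and P3. The part of other cells in the peaks at H19, Igf2 and Dlk1 was not tested.

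The 5 kb on each side of every window was also searched, a far shorter length than the windows themselves. Within 5 kb of a window lay a site in Mrpl23 in all 6 lists, 2004 bp below the H19-Igf2 window. A peak in E16.5 heterozygous cells ended 9 bp below the Dlk1-Meg3 window. A site in Rian in both E13.5 lists lay 1020 bp above it. A site 906 bp below the Rasgrf1 window was in every list but that of E16.5 heterozygous cells.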

How the data were processed

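ATAC-seq was made on 16 samples, 2 per stage and genotype. The authors deposited 8 lists of peaks, 1 per group, whose values are positions only (chromosome, start and end). Per the submitters' processing notes, the tools were bcl2fastq 2.20, cutadapt 1.18, Bowtie2 2.3.4.1, deepTools 3.5.0 and HOMER 4.10, with the build mm10 (GRCm38). The role of each tool, the peak threshold and any pooling of samples before peak calling are not given in the sources used here. Pooling or a deeper library lengthens a list, and a fixed width hides peak breadth.

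Peaks were assigned to windows, starts and intervals by an overlap of at least 1 bp in Python 3.11.15 with numpy 2.4.6 and pandas 2.3.3. Wilson intervals came from statsmodels 0.14.6. Overlaps were checked against bedtools 2.31.1 and tested on simulated data. Gene bounds and starts came from RefSeq tables of GRCm38.p6, in which 27024 genes have a start. The rule for naming took the 5 members with their sites and other genes whose start peak was in some lists only. Further genes, with a start peak in every list or in none, were named after their values were seen. Genes without a start in the table were counted by their outer ends. The members and gene lists were chosen with earlier results of these data known. The methylated intervals were set from textbook distances. Alternatives were flanks of 20 and 100 kb, peak midpoints, other overlap rules, start windows of 500 and 2000 bp, gene ends, wider intervals and protein-coding genes only.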

Additional observations from a re-analysis of the deposited data

Results flagged for a closer look

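In the H19-Igf2 window the knockout list held 3 peaks against 4 in the heterozygous list at E13.5, a difference of -1, and 3 against 2 at E16.5, a difference of 1. The genotypes thus differed in opposite directions at the 2 stages. At E13.5 the difference is the H19 start peak. At E16.5 the knockout list has the peaks in Gm33148 and at the Igf2 start, and the heterozygous list has the peak inside Igf2. Whether the stages differ in this was not tested, as each group has 1 list.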

How the results depend on the processing

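No paired analysis was possible because the lists hold no values of single samples, so that no replicate could be left out either. No value has a test, so a count or density counts as moved when it changed by over 1.5 times. Of 79 recomputed values, 69 stayed within that factor and 10 moved, 9 of them with the flank. A flank of 20 kb left 3 sites in all 6 lists, 1 peak found in the E13.5 knockout list only and 1 in the E16.5 knockout list only. A flank of 100 kb gave 49 sites, 9 in all 6 lists and 19 in 1 list, with 7 E13.5 knockout-only, 8 E16.5 heterozygous-only and 5 E16.5 knockout-only peaks. A smaller window holds fewer peaks and a larger one more by construction. With the E13.5 and E16.5 lists alone, an alternative chosen after seeing the data, 7 sites were in 1 list. Widening the control-region intervals by 1 kb changed none of the 3 counts of lists. Depth per list is unknown.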
